A study of Oryza sativa with 12 samples.

Results

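The 170 probes described here were at least 2-fold higher or lower in rice cells kept without sucrose for 12 h than in cells kept in sorbitol, of 21495 probes on the array. They were chosen by the mean over 3 arrays, with all 3 values on 1 side of zero. Of these, 109 probes (93 genes, 21 of them with a gene name) were higher in the starved cells and 61 probes (50 genes, 11 with a name) were lower. They made up 0.508% and 0.284% of the probes with a value on all 3 arrays. The other 16 higher and 11 lower probes had no gene in the annotation used.

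Rice (Oryza sativa) suspension cells, which grow as free clusters in liquid medium and live on the sugar it holds, were measured on Agilent arrays with 2 colours. Each array set polyadenylated RNA of cells in Murashige and Skoog medium lacking sucrose (Cy5) against RNA of control cells (Cy3). The 4 groups of 3 arrays were 12 h without sucrose against 12 h in the same medium with 88 mM sorbitol, and 12, 24 and 48 h without sucrose against as long in medium with 3% sucrose. Sorbitol was the osmotic control of the design, and the sorbitol cells were also without sucrose. The labels give no cultivar. Separate cultures are not mentioned for the 3 arrays of a group, so the p-values reflect array-to-array spread alone, and that spread may be technical.

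Sucrose is both fuel and signal for such cells, and it also sets the osmotic strength of the medium. Sorbitol is a sugar alcohol that many plant cells use poorly, so it holds up the osmotic strength while feeding little. The medium of the starved cells held neither, so as made up it had the lower osmotic strength in every comparison. Cells under water stress raise abscisic acid, a hormone whose pathway runs from receptors through type 2C protein phosphatases to kinases and transcription factors. Its best known targets are dehydrins and other late embryogenesis abundant proteins, which protect cells as they dry. Measures of water stress or of abscisic acid were not among the data used here.

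All values are log2 ratios of starved cells over control cells, so 1 is 2-fold higher and -1 is 2-fold lower in starved cells, and errors are SDs with n = 3 arrays. No source says which dye was the numerator of the deposited ratio, and the direction is taken from the dye labels. No array had the dyes swapped, so a probe's dye bias stays in every ratio, against sorbitol and sucrose alike, and its part in the results was not tested. The log base of the sorbitol columns was not settled by their values. If they were log2 and not natural log, 31 probes would be 2-fold higher and 2 would be 2-fold lower. If they were log10, more probes would be 2-fold different, and that count was not made. Ratios give no level of expression and no intensities were used, so the cell type could not be checked from markers, and fewer cells of a type cannot be told apart from less RNA per cell. Precision was limited by having 3 arrays in a group.

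The sorbitol arrays were alike and, with their columns read as natural log, narrow. Their SD over all probes was 0.30, 0.34 and 0.38, against 0.64 to 1.26 on the sucrose arrays, and they correlated with each other across probes with r between 0.69 and 0.79. The array of 12 h against sucrose replicate 3 stood apart. Its r with the other 12 h arrays was 0.28 and 0.34, whereas those correlated with each other at 0.65. With the sorbitol arrays its r was between -0.14 and -0.08, against 0.15 to 0.29 for the other 12 h arrays. These correlations run over probes, which share an array and its dye bias and are no replicates. Whether the starved cells of the sorbitol arrays were the same RNA as on the 12 h sucrose arrays was not stated.

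The higher probes had a median of 1.28 against sorbitol and reached 2.84, which is 7.14-fold. The lower probes had a median of -1.10 and reached -1.86. The median SD over the 3 arrays was 0.17 for higher and 0.15 for lower probes. Values on both sides of the threshold were nearly the same. The higher probes LOC4351498, LOC4337725 and LOC9267725 were just inside at 0.9999, 1.0001 and 1.0023, and LOC4324254, LOC4341781 and LOC9268867 just outside at 0.9987, 0.9985 and 0.9970. The lower probes RPL5, LOC4334192 and LOC4340158 were just inside at -1.0039, -1.0040 and -1.0048, and those of ta4, LOC4342583 and SAM1 just outside at -0.9968, -0.9962 and -0.9957. The other probes for the same genes are those that missed the rule, so ratios short of the threshold were fixed in advance. The 9 other probes of higher genes had a median of 0.21 against sorbitol, with 7 above zero, and the 12 other probes of lower genes had a median of -0.21, with 9 below zero. No gene had more than 1 probe among the members.

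Set beside sucrose at 12 h, most of the higher probes were above zero on all 3 arrays and few passed the test. Of 106 tested, 9 were called higher (8.49%) and 0 lower by limma, against 1.94% and 1.32% of all 20089 probes tested at 12 h, where 655 (3.26%) were called in all. Their median was 0.69, against 0.01 for all probes. At least 2-fold higher were 38 probes (35.8%, against 4.66% of all), 1 was at least 2-fold lower, and 67 lay under 2-fold. On all 3 arrays 62 probes were above zero (58.5%, against 22.0% of all). The count of 9 changed with single arrays, as did that of all probes. Without 12 h replicates 1, 2 and 3 the 9 became 1, 3 and 1, and the 655 of all probes became 39, 250 and 100. Without 48 h replicate 2, which enters through the shared spread, they became 15 and 822. Only RAB16B kept its call without any 1 of the 9 arrays.

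The lower probes went both ways against sucrose at 12 h. Of 61 tested, 6 were called higher (9.84%, against 1.94% of all probes) and 3 lower (4.92%, against 1.32%), and their median was 0.03. On all 3 arrays 22 were above zero (36.1%, against 22.0% of all) and 16 below (26.2%, against 17.9%). At least 2-fold higher were 12 (19.7%, against 4.66% of all), and 9 were at least 2-fold lower (14.8%, against 4.03%). The median of the lower probes was 0.06 and -0.08 on 12 h replicates 1 and 2, and 0.58 on replicate 3, the array that stood apart. The 9 calls became 1, 5 and 1 without 12 h replicates 1, 2 and 3, where the 655 calls among all probes became 39, 250 and 100. They became 4 and 5 without 24 h replicates 2 and 3, where all probes had 563 and 619. LOC4350215 was the only one called without any 1 array.

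Counts of calls on each gene list stand beside a share of all probes called higher of 1.94%, 2.03% and 7.79% at 12, 24 and 48 h, and called lower of 1.32%, 1.38% and 7.82%.

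The late embryogenesis genes EM and RAB16B were large in different comparisons. EM, with a mean of 2.40, was among the largest of the higher probes against sorbitol. RAB16B, with a mean of 1.12, lay under their median of 1.28 there and had their largest mean against sucrose at 12 h. EM, an Em-type late embryogenesis abundant protein, was at 2.51, 2.45 and 2.24 against sorbitol, and at 3.05, 0.64 and 2.91 against sucrose at 12 h. Its 12 h mean of 2.20 ± 1.35 missed the threshold (adjusted p = 0.127), with replicate 2 far below the others, and its 48 h mean of 2.89 ± 2.18 passed (adjusted p = 0.0239). RAB16B, a dehydrin, was at 1.24, 1.30 and 0.81 against sorbitol. Against sucrose it was at 2.48, 2.82 and 3.47 at 12 h, at 3.38, 3.37 and 3.27 at 24 h, and at 4.36, 4.93 and 4.90 at 48 h. RAB16B therefore rose at each time, by 2.92 ± 0.50 at 12 h (adjusted p = 0.0017), 3.34 ± 0.06 at 24 h (adjusted p = 0.000314) and 4.73 ± 0.32 at 48 h (adjusted p = 1.63e-05). Of the 8 probes on the list of dehydrin and late embryogenesis genes, these 2 were members, and 1 of 8 was called higher at 12 h, 2 at 24 h and 4 at 48 h, with none called lower. The list's median was 0.55 against sorbitol and 1.05, 1.03 and 1.49 against sucrose in order of time.

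PM19L1, an AWPM-19-like protein of the plasma membrane, was at 1.63, 1.91 and 1.62 against sorbitol and at 0.77, 1.18 and 1.62 against sucrose at 12 h. All its arrays were above zero, and it was called at 48 h (1.22 ± 0.97, adjusted p = 0.0304). LTP-2, a nonspecific lipid transfer protein, was at 1.75, 1.82 and 1.58 against sorbitol and averaged 1.40 ± 1.13 against sucrose at 12 h (adjusted p = 0.337). Its 48 h arrays ran from 0.40 to 4.24 and missed the threshold (adjusted p = 0.0582).

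The list of abscisic acid signalling genes takes in every numbered type 2C phosphatase and bZIP factor by name, whether or not it acts in the pathway. Of its 78 probes, 2 were higher members and none was lower. PP2C59 and PP2C30 are type 2C protein phosphatases, a large class of which only some members restrain the pathway. Whether these 2 do so was not tested. PP2C59 was at 1.30, 1.73 and 1.89 against sorbitol and at 0.73, 0.50 and 1.27 against sucrose at 12 h, and it rose at 48 h (1.46 ± 0.52, adjusted p = 0.00817). PP2C30 was at 1.17, 1.73 and 1.84 against sorbitol and averaged 0.84 ± 0.70 at 12 h (adjusted p = 0.544) and 1.71 ± 1.91 at 48 h (adjusted p = 0.107). The 48 h values of PP2C30 were 1.09, 3.85 and 0.19, so replicate 2 set the mean. On the whole list 3 of 76 probes were called higher and 1 lower at 12 h, and 18 of 75 higher and 5 lower at 48 h.

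Jasmonate and ethylene genes gave 4 higher members of 44 probes. JAZ proteins repress jasmonate responses and are themselves induced by jasmonate. JAZ13 was at 1.83, 1.86 and 1.19 against sorbitol, but at 0.03, 0.34 and -0.46 against sucrose at 12 h, around zero. Its means against sucrose were -0.03 ± 0.40, 0.01 ± 0.57 and 0.13 ± 0.20 at 12, 24 and 48 h, with adjusted p of 0.966, 0.991 and 0.761. JAZ11 was at 1.10, 1.23 and 0.86 against sorbitol and at 1.85, 0.12 and 1.52 at 12 h, and it rose at 48 h (2.50 ± 1.55, adjusted p = 0.0292). JAZ9, next to JAZ11 in the RefSeq gene order, averaged 1.19 ± 0.24 against sorbitol, 0.49 ± 0.29 at 12 h (adjusted p = 0.635) and 1.51 ± 1.47 at 48 h (adjusted p = 0.06). ETR4, an ethylene receptor, was higher against sorbitol at 1.29, 1.43 and 1.60, and below zero against sucrose at 12 h, at -0.24, -0.44 and -0.89. None of ETR4's tests against sucrose passed (adjusted p = 0.397 at 12 h and 0.23 at 48 h). On that list 2 of 39 probes were called higher at 12 h and 7 of 37 at 48 h, with 1 called lower at 48 h.

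Transcription factors gave 3 higher members of 76 probes on the list, and these differed among themselves. MPH1, a MYB factor, was at 1.25, 1.36 and 1.23 against sorbitol and at 2.65, 1.66 and 1.86 against sucrose at 12 h. It rose at every time, by 2.06 ± 0.52 at 12 h (adjusted p = 0.0106), 2.17 ± 0.88 at 24 h (adjusted p = 0.00799) and 2.75 ± 0.44 at 48 h (adjusted p = 0.000972). HOX24 and HOX12 are homeodomain-leucine zipper factors. HOX24 was at 1.37, 1.52 and 1.71 against sorbitol and at 0.08, -0.44 and 1.24 against sucrose at 12 h (adjusted p = 0.852). HOX12 was at 1.09, 0.81 and 1.20 against sorbitol and at -0.26, 0.39 and -0.14 at 12 h, and it rose at 48 h (1.65 ± 0.73, adjusted p = 0.0402). HSF05, a heat shock factor, averaged 1.46 ± 0.18 against sorbitol and 1.12 ± 0.85 against sucrose at 12 h (adjusted p = 0.218).

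On the list for compatible solutes, which are small molecules that balance osmotic strength, 1 of 21 probes was a higher member. This was TPP9, a trehalose-6-phosphate phosphatase. It was at 1.38, 1.63 and 1.52 against sorbitol and at 1.31, -0.13 and 0.85 against sucrose at 12 h, which missed the threshold. RFS, a raffinose synthase outside that list, was at 1.06, 1.34 and 1.89 against sorbitol and at -0.23, 0.71 and 0.68 at 12 h, and it rose at 48 h (1.53 ± 1.01, adjusted p = 0.0153). CML31, a calmodulin-like calcium sensor, held 1.40, 1.34 and 1.39 against sorbitol and 1.21, 1.19 and 1.56 at 12 h. CML31 reached 2.36 ± 1.28 at 48 h (adjusted p = 0.00965). ELA3, an early nodulin-like protein, averaged 1.45 ± 0.31 against sorbitol and had no test at 12 or 48 h, where arrays were blank. GOS5, which has the synonym of photosystem I subunit H, was at 1.02, 1.27 and 1.35 against sorbitol and rose at 24 h (2.63 ± 1.07, adjusted p = 0.0204) and at 48 h (2.89 ± 1.54, adjusted p = 0.00549). It was the only member among 14 probes of the photosynthesis markers, of which 1 of 13 was called higher at 12 h, 2 of 13 at 24 h and 2 of 11 at 48 h, and none of the 8 seed storage probes was a member or called.

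Many higher members were loci without a gene name, and some of these follow. LOC4333949 had the highest mean against sorbitol, at 2.75, 2.96 and 2.80, and was at 1.72, 0.34 and 0.88 against sucrose at 12 h (adjusted p = 0.138). LOC4325586 was at 1.05, 1.31 and 1.02 against sorbitol and at 2.56, 2.61 and 2.10 at 12 h, and it rose by 2.42 ± 0.28 at 12 h (adjusted p = 0.00978) and 4.08 ± 0.79 at 48 h (adjusted p = 0.000399). Other probes of LOC4325586 gave 0.92 and 0.21 against sorbitol and were no members. LOC9267725, close to the threshold against sorbitol, rose by 1.49 ± 0.34 at 12 h (adjusted p = 0.0128) and 2.96 ± 0.33 at 48 h (adjusted p = 0.000384). LOC4331521 was at 1.87, 1.97 and 1.81 against sorbitol and rose by 2.90 ± 0.29 at 12 h (adjusted p = 0.0144). LOC4347418, LOC4332162, LOC4330788 and the unnamed probe 13198 were also called higher at 12 h, with means of 1.81, 1.78, 1.68 and 1.94. Below zero on all 3 arrays against sucrose were 5 higher members at 12 h (4.72%, against 17.9% of all probes), ETR4 among them. There were 3 at 24 h (2.75%, against 20.3%) and 3 at 48 h (2.86%, against 26.1%). LOC4331427 was the only 1 of these called lower. It was at 1.21, 1.39 and 1.48 against sorbitol, at -2.73, -0.83 and -0.88 against sucrose at 12 h, and fell at 48 h (-1.62 ± 0.24, adjusted p = 0.0169).

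Among the lower members were 3 of the 76 probes on the list of cell wall genes. EXPB3 and EXPB6 are beta-expansins, which loosen cell walls during growth. EXPB6 was at -1.09, -1.48 and -1.40 against sorbitol and at -2.73, -0.33 and -2.28 against sucrose at 12 h, and it fell at 12 h (-1.78 ± 1.28, adjusted p = 0.0468) and at 48 h (-1.71 ± 0.48, adjusted p = 0.0227). EXPB3 was at -1.15, -1.68 and -1.35 against sorbitol and at -1.85, -0.24 and -2.35 at 12 h, and fell at 48 h (-2.14 ± 1.19, adjusted p = 0.0139). Both were nearest zero on 12 h replicate 2. CESA6, a cellulose synthase, was at -0.96, -1.10 and -0.97 against sorbitol and averaged -0.40 ± 0.86 at 12 h (adjusted p = 0.585). Other probes of CESA6 gave 0.12 and 0.02 against sorbitol. On that list 1 of 70 probes was called lower at 12 h (1.43%, against 1.32% of all probes) and 7 of 61 at 48 h (11.5%, against 7.82%), where 1 was called higher.

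PK1, a pyruvate kinase at the end of glycolysis, averaged -1.03 ± 0.20 against sorbitol, with arrays from -0.84 to -1.24, and at -1.53, -2.09 and -0.36 against sucrose at 12 h, and it fell at 48 h (-2.33 ± 0.55, adjusted p = 0.00441). RPL5, a protein of the large ribosomal subunit, was at -0.88, -1.08 and -1.06 against sorbitol and at -1.28, -0.50 and -0.43 at 12 h. RPL5 fell at 24 h (-1.26 ± 0.51, adjusted p = 0.0366) and at 48 h (-1.95 ± 0.52, adjusted p = 0.00217). It was 1 member of 33 probes on the list of ribosomal proteins and translation factors, of which 2 of 32 were called lower at 12 h and 11 of 31 at 48 h. GRXS4, a glutaredoxin, averaged -1.02 ± 0.21 against sorbitol, and at 48 h it was at -1.54, -1.26 and -0.21 (adjusted p = 0.0637), and its other probe stood at 0.10 against sorbitol. PP37 averaged -1.15 ± 0.13 against sorbitol and fell at 48 h (-1.81 ± 0.70, adjusted p = 0.0143).

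A group of lower members was higher against sucrose. ETF-QO passes electrons from amino acid breakdown in mitochondria to ubiquinone. It was at -1.26, -0.89 and -0.95 against sorbitol, a sign fixed by the rule for members, and at 1.62, 1.96 and 1.22 against sucrose at 12 h. ETF-QO rose at 12 h (1.60 ± 0.37, adjusted p = 0.0142), with 0.85 ± 0.70 at 24 h (adjusted p = 0.128) and 0.59 ± 0.29 at 48 h (adjusted p = 0.171). It was the only member among 19 probes for nitrogen and amino acid metabolism, of which 7 of 17 were called higher at 12 h and 1 lower. LOC4329812 had the widest gap: -1.51, -1.61 and -1.61 against sorbitol, and 5.06, 2.42 and 2.78 against sucrose at 12 h (3.42 ± 1.43, adjusted p = 0.00993). It also rose at 24 h (3.39 ± 0.81, adjusted p = 0.0096) and at 48 h (3.62 ± 1.15, adjusted p = 0.00254). LOC4350215 was at -1.09, -1.06 and -0.95 against sorbitol and rose by 1.96 ± 0.38 at 12 h (adjusted p = 0.00538). The other lower members called higher at 12 h were LOC4340158, LOC4343482 and LOC4336451, with means of 1.57, 1.70 and 1.48, and LOC4336451 was called higher at each time. The 3 lower members called lower at 12 h were EXPB6, LOC4351319 (-1.49 ± 1.01, adjusted p = 0.0404) and the unnamed probe 22476 (-1.61 ± 0.80, adjusted p = 0.0385). BGLU1, a beta-glucosidase, was at -0.98, -1.19 and -1.46 against sorbitol and at 1.34, 0.41 and 1.56 at 12 h, which missed the threshold (adjusted p = 0.0759).

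The remaining lower members with a name lay near zero against sucrose or spread widely. NCBP, a cap-binding protein, was at -0.83, -1.04 and -1.16 against sorbitol and averaged 0.02 ± 0.36 at 12 h (adjusted p = 0.966). PBZ1, a pathogenesis-related protein induced by the compound probenazole, was at -1.21, -1.23 and -1.40 against sorbitol and at 0.82, 0.74 and -0.68 at 12 h (adjusted p = 0.833). LOC4330617 had the lowest mean against sorbitol, at -1.48, -1.68 and -2.42, and was at 1.14, 0.29 and 1.27 at 12 h (adjusted p = 0.219).

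More higher members were called at the later times, all but 1 of them on the side seen against sorbitol. Calls among lower members were more numerous at 48 h only, when more of all probes were called too. At 24 h 715 of 20971 probes were called (3.41%), and at 48 h 2882 of 18463 (15.6%). Of the higher probes 14 of 109 were called higher at 24 h (12.8%, against 2.03% of all probes) and 41 of 105 at 48 h (39.0%, against 7.79%), while 0 were called lower at 24 h and 1 at 48 h (0.952%, against 7.82%). Their median was 0.84 at 24 h and 1.27 at 48 h, where all probes had 0.00 and 0.01. Of the lower probes 4 of 61 were called in each direction at 24 h (6.56%, where 1.38% of all were called lower), and at 48 h 20 were called lower (32.8%) and 9 higher (14.8%). Their median was -0.32 at 24 h and -0.53 at 48 h. At 24 h 47 higher probes (43.1%) were at least 2-fold higher and 1 was at least 2-fold lower, against 5.42% and 4.84% of all probes. On all 3 arrays of 24 h 59 (54.1%) were above zero and 3 below, against 21.3% and 20.3% of all. At 48 h 61 higher probes (58.1%) were at least 2-fold higher and 1 was at least 2-fold lower, against 8.62% and 9.23% of all probes. On all 3 arrays of 48 h 70 (66.7%) were above zero and 3 below, against 27.4% and 26.1% of all.

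Of the lower probes 13 (21.3%) were at least 2-fold higher at 24 h, against 5.42% of all probes, and 15 (24.6%) at least 2-fold lower, against 4.84%. At 48 h 11 (18.0%) were at least 2-fold higher, against 8.62% of all, and 22 (36.1%) at least 2-fold lower, against 9.23%. On all 3 arrays of 48 h 31 (50.8%) were below zero, against 26.1% of all probes, and 17 (27.9%) above, which is near the 27.4% of all. On single arrays their median ran from -0.39 to -0.14 at 24 h and from -0.70 to -0.25 at 48 h, while that of the higher probes was 0.60, 1.57 and 0.42 on the 24 h arrays.

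Over the 3 times 8 higher probes (7.34%) were called higher at each, against 1.08% of all probes, and 26 (23.9%) at 48 h alone, against 4.52%. Called at none were 67 higher probes (61.5%) and 29 lower probes (47.5%), against 85.8% of all probes, where a probe not tested at a time counts as not called. On 48 h replicate 2 the higher probes had a median of 2.32, against 0.61 and 0.77 on replicates 1 and 3.

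The 48 h counts fell without that array, among members and among all probes. Without 48 h replicate 2 the 42 calls among higher probes became 12, and the 29 among lower probes became 12. The 2882 calls among all probes became 541. Without replicate 1 lower probes had 14 calls and all probes 1069. At 24 h the 14 calls among higher probes became 5 and 4 without 24 h replicates 1 and 2, and the 8 among lower probes became 1 and 0. The 715 among all probes became 117 and 102. Without 48 h replicate 2 higher probes had 22 calls at 24 h and all probes 861. Among named higher members, EM, PM19L1, PP2C59, JAZ11, HOX12, RFS, CML31 and GOS5 each lost their 48 h call without 48 h replicate 2, EM and JAZ11 also without replicate 3, and HOX12 without most other single arrays. Among named lower members EXPB6 and PP37 lost it without 48 h replicate 1 or 2, and EXPB3 without replicate 1. At 12 h ETF-QO lost its call without any 1 of the 12 h arrays, and MPH1 and LOC4329812 theirs without 12 h replicate 1 or 3. Calls that survived the loss of any 1 array at 48 h numbered 11 of 42 for higher probes, RAB16B, MPH1, LOC4325586 and LOC9267725 among them, and 9 of 29 for lower probes, PK1, RPL5 and LOC4329812 among them.

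The difference of 48 minus 12 h, in which a probe's dye bias of equal size cancels, passed for 0 of 18348 probes by limma (0.0%), and 1165 had an unadjusted p under 0.05. Among members 10 of 104 higher probes and 16 of 61 lower probes had such a p. The median difference was 0.56 for higher probes, -0.53 for lower probes and -0.01 for all. No member's ratio was thus shown to differ between 12 and 48 h.

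Members also lay near each other in the RefSeq gene order. Within 5 genes of another member of their side were 8 of 93 higher genes (8.6%) and 12 of 50 lower genes (24.0%), where 2.9% and 1.52% of all 15798 genes lay as near to a higher or a lower member. Probe sequences were not used here, and whether near-identical neighbours share signal was not tested. EXPB6 and EXPB3 were 2 genes apart on chromosome 10 and lower against both controls. LOC4334013 and LOC4334015, 2 genes apart on chromosome 3, averaged -1.08 ± 0.08 and -1.13 ± 0.15 against sorbitol and rose at 48 h by 4.07 ± 1.58 (adjusted p = 0.0122) and 5.07 ± 1.33 (adjusted p = 0.00118). In a run of 4 loci on chromosome 8, LOC4344615, LOC4344618 and LOC4344619 fell at 48 h, by means of -2.46 ± 2.42, -2.64 ± 1.70 and -1.85 ± 0.96 (adjusted p = 0.0435, 0.0105 and 0.00612). Their neighbour LOC4344616 was as low against sorbitol (-1.37 ± 0.22) but averaged 1.79 ± 0.56 against sucrose at 12 h (adjusted p = 0.0778).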

How the data were processed

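The deposited table held 1 value per probe and array, taken from the values as the natural log of a ratio of the channels. Per the labels, starved cells carried Cy5 and control cells Cy3 on every array. Background correction, centring and software were not given in the sources used here. Values were turned to log2 and blanks (2.41% of cells) were left blank. The blanks were uneven: 48 h replicate 2 had most, at 2927 probes, and 12 h replicates 1 and 2 had 1008 and 1277. The sorbitol arrays had 1, 0 and 24. Probes were named through a probe annotation and a RefSeq gene table (assembly ASM3414082v1), in which all 17839 probes with 1 gene were found, while 21 probes had several genes and 3635 had none. The gene table gave most genes a locus number as symbol, so the first synonym that was no clone number served as the name.

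Members were the probes whose mean over the 3 sorbitol arrays was at least 2-fold either way (natural log of 2 to 3 decimals), with 3 values of 1 sign. Their values against sorbitol were not tested. The 9 arrays with sucrose control entered a limma fit (version 3.58.1, under R 4.3.3, with lmFit and eBayes) that had 1 coefficient per time. Two-sided p-values were adjusted by Benjamini-Hochberg over all probes of a comparison, and the threshold was 0.05. A probe was tested where every array of the times compared had a value. The fit was tested on simulated data, and counts were made in Python 3.11.15.

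The members, gene lists and tests were chosen with earlier results of these data known. The text names members with a gene name by a rule: the 12 highest and 12 lowest against sorbitol, up to 4 of each gene list, those called at 12 h against sucrose (up to 6 in the direction seen against sorbitol and 6 in the other), the 3 nearest the threshold on each side, and those called in 48 minus 12 h, of which there were none. Loci known by number alone that fall outside that rule, and unnamed probes, were chosen after their values were seen. Alternatives were other choices of arrays, the replicate number as a block, quantile normalization, gene averages and each array left out in turn. The arrays left out of a comparison they do not belong to were added after seeing the data. Promoter motifs were not analysed here.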

Additional observations from a re-analysis of the deposited data

How the results depend on the processing

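Among all probes at 24 h the split of 425 called higher and 290 lower became 944 and 984 with the replicate block, and at 48 h 1439 and 1443 became 1336 and 1265 with quantile normalization. The lower members at 24 h, with 4 called each way, had 10 higher and 15 lower with the block. With all 12 arrays in the fit, 1792, 1781 and 4737 probes were called at 12, 24 and 48 h and 1 for 48 minus 12 h; among higher members 24 and 33 were called at 12 and 24 h, and among lower members 18 and 22. With only the arrays compared, 415 and 788 of all probes were called at 24 and 48 h, 25 and 15 higher members at 12 and 48 h, and 5 and 18 lower members at 24 and 48 h. With quantile normalization 1474 and 1458 probes, 29 and 31 higher members and 14 and 19 lower members were called at 12 and 24 h. The replicate block gave 1368, 1928 and 4348 probes at 12, 24 and 48 h and 2 for 48 minus 12 h, with 25 and 35 higher and 17 and 25 lower members at 12 and 24 h. The numbers paired the 24 and 48 h arrays by their values (correlations of deviations from 0.42 to 0.56 for same-numbered arrays). Of the 12 h arrays only replicate 3 went with its number, at 0.44 with 24 h and 0.46 with 48 h. Replicate 1 of 12 h was at 0.39 and 0.36 with replicate 2 of 24 and 48 h. Replicate 2 of 12 h was at 0.52 and 0.33 with replicate 1 of 24 and 48 h. With their own numbers these 2 arrays ran from -0.19 to -0.03. The block by number did not follow this, and a block that did was not run. The labels do not say what a number shares. With 1 array left out, the calls among all probes ran from 39 to 822 for 12 h, from 102 to 861 for 24 h and from 541 to 2982 for 48 h, and stayed at 0 for 48 minus 12 h; higher members gave 1 to 15, 4 to 22 and 12 to 48, and lower members 1 to 10, 0 to 11 and 12 to 30. The rule itself gave 31 higher and 2 lower members at a deposited mean of 1, 67 and 25 with all 3 arrays past the threshold, and 100 to 142 and 49 to 93 with 1 sorbitol array left out, the 93 without replicate 1. The cause of these differences was not tested. Signal over background was not known, so neither a filter on dim probes nor another background correction was run.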

Other observations

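Values of gene groups not described above follow, none of which held a member. Members were 0.508% (higher) and 0.284% (lower) of all probes, so lists of these sizes would hold less than 1 member at that share, and having none is no result about them. Against sucrose at 12 h, 4 of 15 sugar transporter probes were called higher (26.7%, against 1.94% of all probes) and 2 lower (13.3%, against 1.32%). Of the probes for starch and sucrose enzymes 3 of 24 were called higher (12.5%) and 1 lower (4.17%). Another list joins SnRK1 kinases with hexokinases and other sugar regulators, among them MYBS factors. On it 3 of 14 were called higher (21.4%) and none lower. Among aquaporins, which are water channels, 1 of 27 was called higher (3.7%) and 2 lower (7.41%). The medians of these 4 lists against sorbitol were 0.07, 0.04, 0.01 and 0.13.

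At 48 h against sucrose 14 of 58 probes for cyclins, their kinases and DNA replication were called lower (24.1%, against 7.82% of all probes) and none higher. Of the auxin response probes 16 of 54 were called lower (29.6%) and 2 higher (3.7%, against 7.79% of all). The median of each list against sorbitol was -0.08. Metallothioneins, small proteins that bind metals, had 4 of 8 probes called higher (50.0%) and none lower, with a median of 0.07 against sorbitol.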
